A study of Mus musculus with 52 samples.

Results

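The receptors Robo1, Robo2 and Robo3 and the secreted ligands Slit1, Slit2 and Slit3 were followed through bulk RNA-seq of the mouse suprachiasmatic nucleus (SCN), the paired hypothalamic nuclei that hold the circadian pacemaker. The 6 genes were taken by name from the 21999 genes of the deposited count and RPKM (reads per kilobase of transcript, scaled to library size) tables, and Robo3 was singled out because its level differs between the genotypes, so its values are described here without a test. The other 5 genes, called its relatives below, were tested in the fit of all genes. All tissue came from male mice aged 11 to 12 weeks, and each library pooled 6 pairs of SCN. The strain is not given in the sources used here.

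The Npas4 experiment compared mice that lack Npas4, a neuronal transcription factor induced by activity, with wild-type littermates. Its 4 groups of 3 libraries were Npas4-/- after 1 h of light from circadian time (CT) 17, wild type after the same light, Npas4-/- kept dark, and wild type kept dark. The labels do not restrict the loss of Npas4 to a cell type, so the whole animal is taken as the mutant. The light-pulse experiment used wild-type mice only. It held dark controls at CT17 (4 libraries) and at CT23 (2 libraries), and light from CT17 for 0.5 h (4 libraries), 1 h, 3 h and 6 h (2 libraries each). CT23 dark matches the end of the 6 h light. The light of 0.5 h, 1 h and 3 h has no dark control at its end, only CT17 dark. Histone ChIP-seq peak lists, each from 1 sample of 2 pairs of SCN, covered tissue after 1 h of light and tissue from the dark.

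Slit proteins are secreted guidance cues that bind Robo receptors on growth cones and usually repel them. In the developing nervous system this keeps axons from crossing or recrossing the midline, and in the adult the same genes stay active in many neurons and glia. Mammalian Robo3 is the divergent member of the family. It binds Slit proteins poorly, binds NELL2, and lets commissural axons cross the midline.

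Total counts were 26638939 to 32097975 per library in the Npas4 experiment. In the light-pulse experiment, 12 libraries had 12477382 to 15369985 counts, and the 4 libraries whose titles end in s, all at 0.5 h of light or in CT17 dark, had 27413860 to 30149286. The libraries with the suffix stood apart for some of the 6 genes. Robo1 was lower in them by 0.51 on the log2 scale at 0.5 h of light and by 0.36 in CT17 dark, and Robo2 was higher by 0.32 and 0.24. The suffix was therefore a term of the light-pulse fit. CPM values (counts scaled to library size) below are scaled by the trimmed mean of M-values (TMM). Of the SCN markers Vip, Avp, Grp, Nms, Six6, Lhx1 and Rgs16, none was at 0 in any group. Nor was any marker of the other cell types named below, so this does not check the SCN label. Reads at the Npas4 gene did not vanish from the Npas4-/- libraries. Npas4 had 4.55, 7.63 and 5.19 CPM in Npas4-/- after light, against 13.7, 10.7 and 14 CPM in wild type after light. It had 5.27, 10.1 and 10.4 CPM in Npas4-/- in the dark, against 8.64, 8.20 and 8.34 CPM in wild type in the dark. The genotypes were separate after light and overlapped in the dark. The deleted part of the gene is not given in the sources used here, so these reads do not check the labels.

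The promoters of the genes the results turn on are shown because histone peaks lie on them. Robo3 and Slit3 are also the members whose Npas4-/- libraries all lie below the wild-type ones of the same lighting. The share of all genes that separate in this way was not counted. Each promoter runs from 250 bases before to 50 bases after the start site in RefSeq annotation of GRCm38.p6 (mm10), read 5′ to 3′ along the gene. Capitals mark TCGTG or its complement CACGA, the core bound by NPAS4 dimers, and CACGTG, the E-box of the circadian clock factors.
Robo3, chr9:37433126-37433425, minus strand: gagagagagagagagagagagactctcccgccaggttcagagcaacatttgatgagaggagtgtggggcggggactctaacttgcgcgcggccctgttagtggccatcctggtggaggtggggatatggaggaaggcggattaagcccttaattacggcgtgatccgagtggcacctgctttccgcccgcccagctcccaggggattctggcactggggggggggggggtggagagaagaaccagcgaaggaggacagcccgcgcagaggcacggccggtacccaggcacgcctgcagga
Slit3, chr11:35121206-35121505, plus strand: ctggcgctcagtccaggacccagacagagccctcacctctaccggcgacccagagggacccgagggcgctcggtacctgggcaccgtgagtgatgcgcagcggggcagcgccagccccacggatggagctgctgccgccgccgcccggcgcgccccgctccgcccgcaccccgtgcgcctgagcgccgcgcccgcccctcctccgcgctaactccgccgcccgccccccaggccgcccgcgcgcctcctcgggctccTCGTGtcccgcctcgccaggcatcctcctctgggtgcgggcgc
Robo1, chr16:72662899-72663198, plus strand: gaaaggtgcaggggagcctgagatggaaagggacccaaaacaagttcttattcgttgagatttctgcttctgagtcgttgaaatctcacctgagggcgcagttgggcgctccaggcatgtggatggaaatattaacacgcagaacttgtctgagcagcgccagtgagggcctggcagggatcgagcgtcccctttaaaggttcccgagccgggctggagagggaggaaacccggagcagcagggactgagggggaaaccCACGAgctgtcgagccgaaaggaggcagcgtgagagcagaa
Robo2, chr16:75447244-75447543, minus strand: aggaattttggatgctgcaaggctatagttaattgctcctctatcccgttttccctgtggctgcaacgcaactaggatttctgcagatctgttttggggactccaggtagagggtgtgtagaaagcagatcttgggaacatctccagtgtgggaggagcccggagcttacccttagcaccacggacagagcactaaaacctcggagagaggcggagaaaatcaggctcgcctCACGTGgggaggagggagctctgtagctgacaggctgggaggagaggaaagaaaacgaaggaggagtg

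The Slit3 promoter held TCGTG from base 8 after the start, and the Robo1 promoter held the complement from base 10. The farthest upstream of the 3 annotated Robo2 starts had CACGTG from base -18. On both strands, TCGTG was found in 17.5% and CACGTG in 7.84% of 21263 promoters of the same length. The Robo3 promoter held neither, nor the shortened cyclic AMP response site TGACG (23.6% of promoters) nor the AP-1 site TGANTCA (6.99%), which says only that these letters are not in this window. None of the 4 motifs was in the Slit2 promoter. The Robo3 window was 63.3% G or C with 17 CpG, against medians of 56.3% and 13 over all promoters. Its Slit3 counterpart reached 78.3% with 41 CpG.

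Robo3 was nearly absent from SCN without Npas4. It had 13, 8 and 10 counts in the 3 Npas4-/- libraries from the dark, against 155, 287 and 244 counts in wild type from the dark. After 1 h of light it had 8, 12 and 6 counts in Npas4-/-, against 183, 232 and 224 counts in wild type. All 6 mutant libraries lay far below all 6 wild-type libraries, and 57 counts in all came from Npas4-/-, against 1325 from wild type. On the CPM scale, Robo3 averaged 0.373 ± 0.0908 CPM in Npas4-/- and 7.75 ± 1.91 CPM in wild type in the dark (SD, n = 3 each), a log2 fold of -4.36 ± 0.26 (SE). After light it averaged 0.293 ± 0.0918 CPM in Npas4-/- and 7.07 ± 0.789 CPM in wild type (SD, n = 3 each), a log2 fold of -4.56 ± 0.27. The fitted levels were 20.6-fold lower in Npas4-/- in the dark and 23.7-fold lower after light. By size of the fold it ranked 1 among the 15001 genes fitted in either condition. It was singled out for this same difference, so the rank only describes it. It passed the filter on low counts through the wild-type libraries. In bulk tissue, fewer cells that express a gene and less RNA per cell cannot be told apart.

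**Figure D1:**
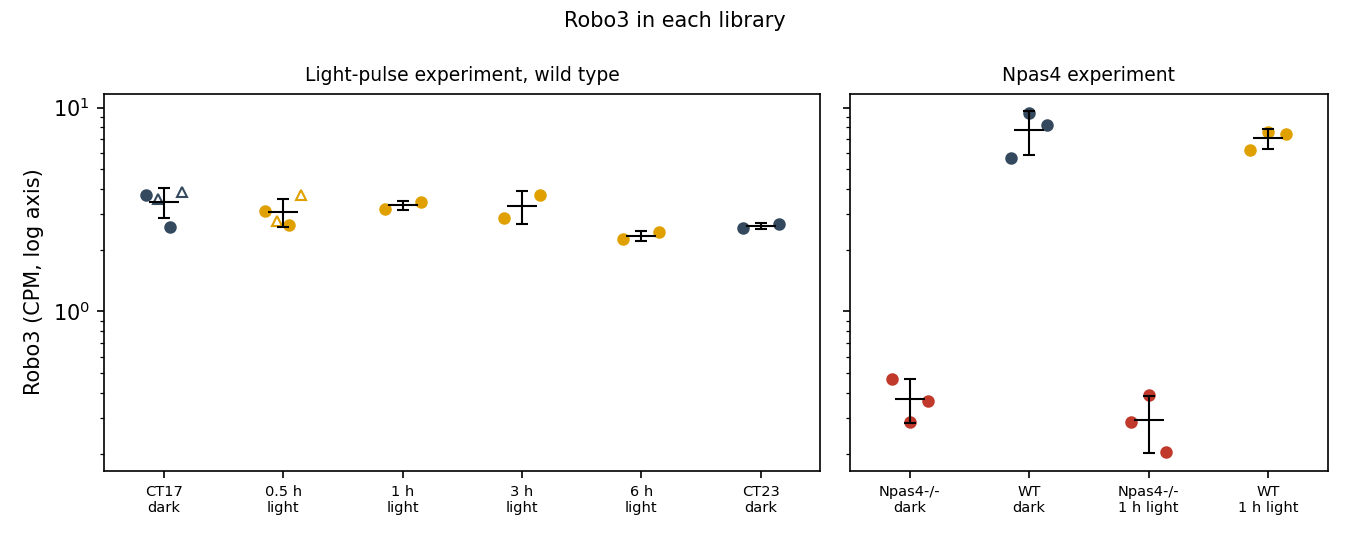
Robo3 in CPM on a log axis, 1 point per library, with the mean and SD of each group as a black bar. Open triangles are the libraries whose titles end in s. All 6 Npas4-/- libraries lie at 0.205 to 0.469 CPM, and the 6 wild-type littermate libraries at 5.67 to 9.41 CPM.

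The Robo3 values after light lay close to those in the dark of the same genotype. In wild-type littermates the log2 fold of 1 h light against dark was -0.14 ± 0.18 (95% interval -0.53 to 0.26), and in Npas4-/- it was -0.34 ± 0.40 (-1.20 to 0.52). The light response in Npas4-/- minus that in wild type was -0.20 ± 0.43. With 6 to 13 counts per mutant library, any light change in Npas4-/- from -1.20 to 0.52 on the log2 scale lies within its 95% interval at this depth.

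In the light-pulse experiment no time stood far from CT17 dark for Robo3. It had 50, 111, 35 and 119 counts in CT17 dark, the second and the last of them from the deeper libraries with the suffix. It had 41, 79, 38 and 114 counts at 0.5 h of light in the same order of libraries. The later times had 42 and 46 counts at 1 h, 36 and 51 at 3 h and 31 and 35 at 6 h, and CT23 dark had 32 and 40. In CPM the group means were 3.45 ± 0.579 in CT17 dark, 3.08 ± 0.482 at 0.5 h, 3.31 ± 0.170 at 1 h and 3.29 ± 0.599 at 3 h (SD). They were 2.35 ± 0.137 CPM at 6 h of light and 2.63 ± 0.0781 CPM in CT23 dark. The log2 fold was -0.16 ± 0.15 at 0.5 h, 0.05 ± 0.21 at 1 h and 0.04 ± 0.21 at 3 h against CT17 dark, and -0.16 ± 0.24 at 6 h against CT23 dark. CT23 dark against CT17 dark gave -0.28 ± 0.22. The 95% interval of each of these 5 differences included 0.

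Among the relatives, 0 of 5 were called at an adjusted p under 0.05 in Npas4-/- against wild type by edgeR's quasi-likelihood test, in the dark (background 0.753% of genes called) or after light (background 0.467%). At an unadjusted p under 0.05 there was 1 in each condition, Slit3, and DESeq2 called 0 in each. All 5 passed the filter in both experiments. Over the 10 alternative fits of each condition in edgeR or DESeq2, the replicate number as a block among them, no relative was called. The lowest adjusted p of these fits was 0.0614 in the dark and 0.0716 after light, both for Slit3.

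Robo1, a widely expressed receptor of Slit proteins, did not separate the genotypes. It had 33.8, 26.5 and 24.0 CPM in Npas4-/- in the dark, against 27.9, 28.5 and 27.5 CPM in wild type, and the mutant libraries lay on both sides of the wild-type ones. After light it had 29.6, 27.8 and 27.3 CPM in Npas4-/-, against 26.6, 31.8 and 27.2 CPM in wild type, again with overlap. The log2 folds were 0.01 ± 0.11 in the dark (95% interval -0.23 to 0.24) and -0.02 ± 0.11 after light (-0.25 to 0.22). Robo2, which shares Slit binding with Robo1, had 25.3, 21.7 and 21.3 CPM in Npas4-/- in the dark, against 27.4, 25.1 and 22.6 CPM in wild type. After light it had 26.6, 23.9 and 23.5 CPM in Npas4-/-, against 24.8, 26.3 and 24.7 CPM in wild type. The groups overlapped in both conditions, with log2 folds of -0.13 ± 0.09 (-0.32 to 0.06) and -0.03 ± 0.09 (-0.22 to 0.15).

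Slit1, a ligand made mainly in the nervous system, had 131, 137 and 123 CPM in Npas4-/- in the dark, against 144, 168 and 124 CPM in wild type. After light it had 140, 147 and 128 CPM in Npas4-/-, against 143, 163 and 129 CPM in wild type. The groups overlapped, with log2 folds of -0.16 ± 0.11 (-0.40 to 0.08) and -0.07 ± 0.11 (-0.30 to 0.17). Slit2, the ligand that also acts widely outside the nervous system, had 145, 214 and 154 CPM in Npas4-/- in the dark, against 157, 218 and 162 CPM in wild type. After light it had 151, 210 and 169 CPM in Npas4-/-, against 178, 169 and 165 CPM in wild type. The library numbered 2 stood high in 3 groups, all but wild type after light, and the fit had no term for the number. The log2 folds of -0.07 ± 0.16 (-0.42 to 0.29) and 0.05 ± 0.16 (-0.30 to 0.40) had the widest intervals of the 5 relatives.

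Slit3, a ligand also known from the diaphragm and other tissues outside the brain, was the relative whose genotypes did not overlap. It had 12.2, 12.8 and 11.2 CPM in Npas4-/- in the dark, against 15.96, 15.3 and 13.1 CPM in wild type. After light it had 12.6, 13.6 and 13.0 CPM in Npas4-/-, against 16, 18.0 and 14.3 CPM in wild type. Every mutant library was below every wild-type library of its condition, although the gaps were small. The share of all 15001 genes that separate in this way was not counted, so the separation describes these libraries only. The log2 fold was -0.29 ± 0.10 in the dark (unadjusted p = 0.0128, adjusted p = 0.348 by edgeR's quasi-likelihood test). It was -0.30 ± 0.10 after light (unadjusted p = 0.00971, adjusted p = 0.428). Averaged over both lighting conditions, a comparison chosen after these values were seen, it was -0.30 ± 0.07 with an adjusted p of 0.0555 by the same test (background 1.93%). It just missed the threshold, and 0 of the 5 relatives were called there by edgeR, against 1 by DESeq2, which put Slit3 at an adjusted p of 0.0126. Over the 16 alternative fits of that comparison, the adjusted p of Slit3 ran from 0.00514, with the replicate number as a block in edgeR, to 0.144. It also passed without the third wild-type library from the dark (0.0354) or the third after light (0.0381).

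**Figure D2:**
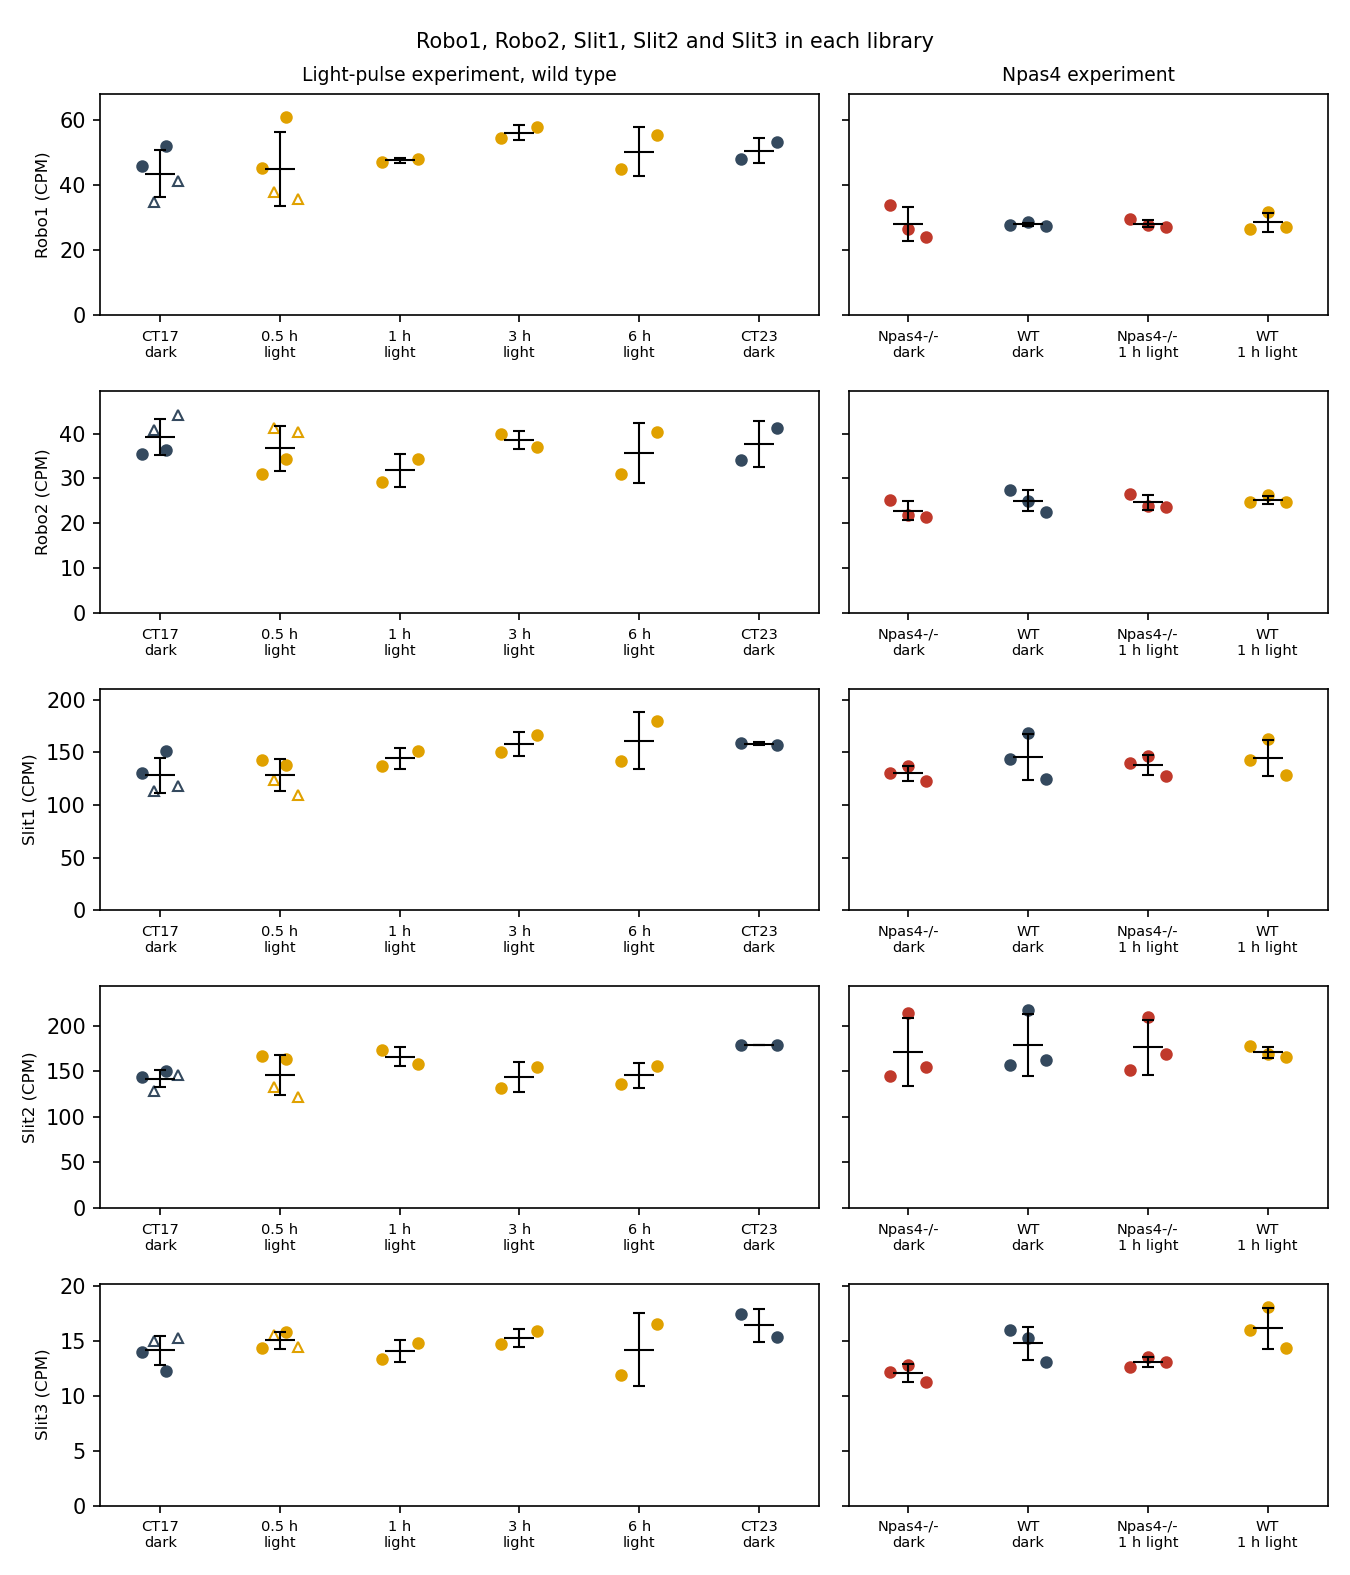
Robo1, Robo2, Slit1, Slit2 and Slit3 in CPM from 0, 1 point per library, with the mean and SD of each group as a black bar. Red is Npas4-/-, dark blue is wild type in the dark, yellow is wild type after light, and open triangles are the libraries whose titles end in s. Slit3 is the gene whose Npas4-/- points lie wholly below the wild-type points of the same lighting, at 11.2 to 12.8 against 13.1 to 15.96 CPM in the dark. How many of all genes separate in this way was not counted.

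Markers of SCN neurons summed to higher levels in Npas4-/- than in wild type, the opposite of Robo3 and Slit3. Their summed level was 1721 to 2601 CPM in Npas4-/- in the dark, against 1090 to 1525 CPM in wild type. After light it was 1936 to 2149 CPM in Npas4-/-, against 1161 to 1672 CPM in wild type. Vip had the highest mean of the list in each group, but its gap between the genotypes was smaller than that of the sum. Vip averaged 832 CPM in Npas4-/- and 614 CPM in wild type in the dark, and 894 against 536 CPM after light. The sum averaged 2116 against 1309 CPM in the dark and 2062 against 1374 CPM after light. Not every marker was higher. Grp averaged 22.95 CPM in Npas4-/- and 26.77 CPM in wild type in the dark, and 23.02 against 27.12 CPM after light, and was not called. Of the 7 markers, 2 were called higher in both conditions. At an unadjusted p under 0.05 by edgeR there were 3 in each, with Avp added in the dark and Vip after light. Nms, a neuropeptide of SCN neurons, had a log2 fold of 1.47 ± 0.20 in the dark (adjusted p = 0.00439, edgeR) and 1.49 ± 0.20 after light. Rgs16, which limits G-protein signalling and cycles in the SCN, had 1.84 ± 0.16 in the dark (adjusted p = 9.45e-05, edgeR) and 1.21 ± 0.15 after light. No gene of the marker lists for oligodendrocytes, astrocytes, microglia, endothelial cells, meningeal fibroblasts or neighbouring hypothalamic neurons was called between the genotypes in either condition by edgeR. DESeq2 called Hcrt in the dark and Agrp after light, both of neighbouring neurons. At an unadjusted p under 0.05 there were 4 of 10 oligodendrocyte, 5 of 7 meningeal and 1 of 10 neighbouring neuron markers in the dark, and 1 of 10 neighbouring neuron markers after light. The share of all genes at that cut was not counted. Meningeal markers summed to 57.7 to 222 CPM in Npas4-/- in the dark, against 65.2 to 80.3 CPM in wild type. The part of these markers in the Robo3 and Slit3 values was not tested.

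Robo3 lies at chr9:37416045-37433436 (minus strand, GRCm38.p6), next to Robo4, the family member of endothelial cells, whose annotated span (chr9:37401902-37414023) does not overlap it. Robo4 had 5.30, 4.29 and 4.86 CPM in Npas4-/- in the dark, against 4.65, 4.07 and 4.49 CPM in wild type. After light it had 4.59, 3.33 and 5.05 CPM in Npas4-/-, against 4.65, 4.21 and 4.96 CPM in wild type. The Robo4 ranges of the genotypes overlapped. Of the 17 tested genes within 1 Mb of Robo3, none passed the threshold between the genotypes by edgeR, with the lowest adjusted p at 0.443 in the dark and 0.999 after light. Their log2 folds ran from -0.16 to 0.78 in the dark and from -0.24 to 0.10 after light.

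No relative was called after light. In wild-type littermates 0 of 5 were called for 1 h light against dark (background 2.57%), and 0 of 5 in Npas4-/- (background 1.56%), by edgeR and by DESeq2, with 0 at an unadjusted p under 0.05. The log2 folds of the 5 in wild type ran from -0.07 ± 0.16 for Slit2 to 0.13 ± 0.10 for Slit3. In Npas4-/- they ran from 0.01 ± 0.11 for Robo1 to 0.12 ± 0.10 for Slit3. The difference between these light responses was called for 0 of 5 (background 0.0133%), likewise with 0 at an unadjusted p under 0.05 and 0 by DESeq2. Its 95% interval was widest for Slit2, at -0.38 to 0.61 on the log2 scale.

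The comparisons at 0.5 h, 1 h and 3 h share the CT17 dark libraries. In them light and the circadian time that passed since CT17 cannot be told apart. In them 0 of 5 relatives were called by edgeR at 0.5 h (background 0.468%), at 1 h (background 1.27%) or at 3 h (background 3.24%), with 0 at an unadjusted p under 0.05 and 0 by DESeq2. At 6 h of light against CT23 dark (background 1.41%) and in CT23 dark against CT17 dark (background 0.269%) the counts were also 0 by edgeR and by DESeq2, and 1 at an unadjusted p under 0.05, Slit2 each time. These comparisons share the CT23 dark libraries. Slit2 had 144, 129, 151 and 146 CPM in CT17 dark. It had 136 and 156 CPM at 6 h of light, against 179 and 179 CPM in CT23 dark. Both CT23 dark libraries were above both 6 h libraries and above all 4 CT17 libraries. The log2 fold at 6 h was -0.30 ± 0.10 (adjusted p = 0.279, edgeR) and that of CT23 against CT17 dark was 0.21 ± 0.10 (adjusted p = 0.473, edgeR). Neither passed the threshold.

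The other relatives had like spreads over the times. Robo1 averaged 43.4 ± 7.18 CPM in CT17 dark, 44.9 ± 11.3 at 0.5 h, 47.5 ± 0.664 at 1 h, 56.1 ± 2.27 at 3 h and 50.2 ± 7.40 at 6 h of light, and 50.6 ± 3.88 in CT23 dark (SD). The CT17 and 0.5 h means include the libraries with the suffix, in which Robo1 was lower. Slit1 averaged 128 ± 16.8 CPM in CT17 dark, 129 ± 15.04 at 0.5 h, 144 ± 10.1 at 1 h, 158 ± 11.4 at 3 h and 161 ± 26.9 at 6 h of light, and 158 ± 1.35 in CT23 dark. Robo2 averaged 39.2 ± 4.05 CPM in CT17 dark, 36.7 ± 4.94 at 0.5 h, 31.8 ± 3.74 at 1 h, 38.5 ± 2.05 at 3 h and 35.7 ± 6.64 at 6 h of light, and 37.7 ± 5.11 in CT23 dark. Slit3 averaged 14.1 ± 1.36 CPM in CT17 dark, 15.03 ± 0.736 at 0.5 h, 14.1 ± 0.990 at 1 h, 15.3 ± 0.811 at 3 h and 14.2 ± 3.29 at 6 h of light, and 16.4 ± 1.47 in CT23 dark. The SD of Slit3 at 6 h came from libraries of 11.9 and 16.5 CPM. With the suffix term, the 3 h log2 folds were 0.16 ± 0.12 for Robo1 and 0.17 ± 0.10 for Slit1. These rest on the choice of term. With the batch of the labels as the term, Robo1 (0.54, adjusted p = 0.0306) and Slit1 (0.42, adjusted p = 0.0202) were called higher at 3 h and Robo2 lower at 1 h (-0.44, adjusted p = 0.0186, all edgeR). All 1 h and 3 h libraries are of labelled batch 2, whose CT17 dark libraries are the ones with the suffix, so batch 2 alone has no CT17 library of their kind. At 0.5 h, where both kinds of library exist, Robo1 differed from CT17 dark by 0.11 ± 0.23 (SE) without the suffix and by -0.04 ± 0.13 with it.

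**Figure D3:**
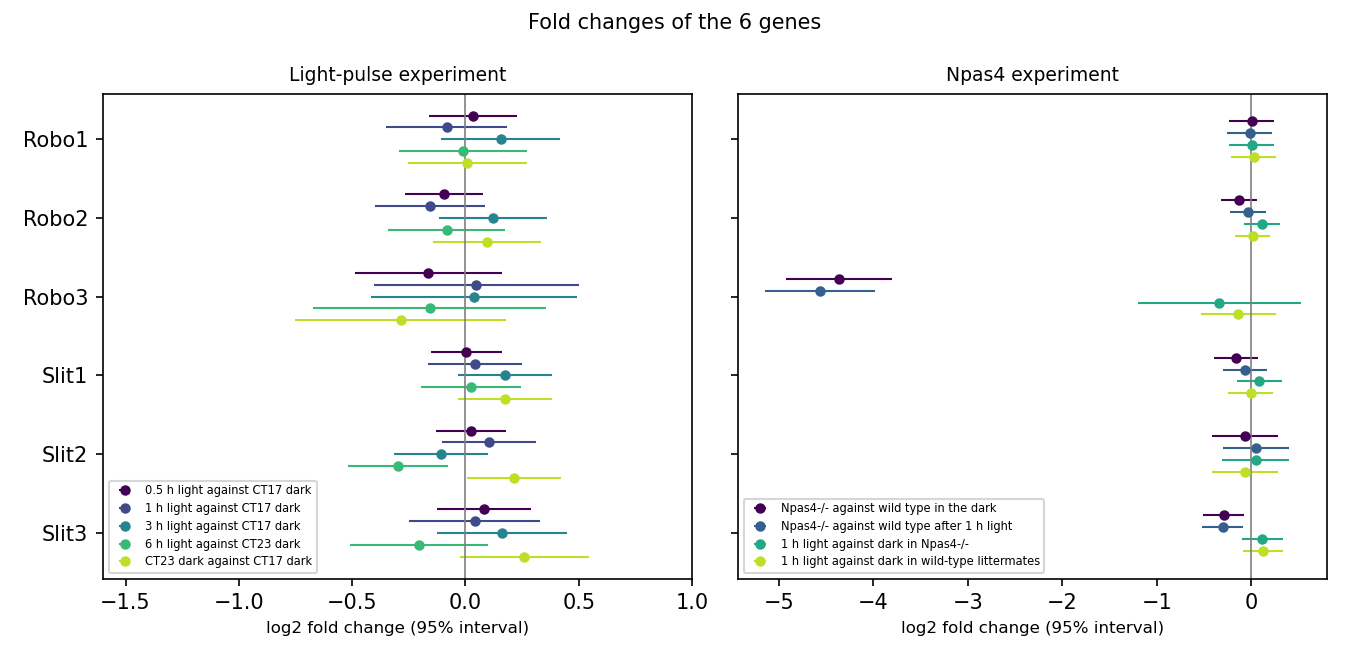
Log2 fold changes of the 6 genes with 95% intervals from edgeR, for the light-pulse comparisons (left) and the Npas4 comparisons (right, wider axis). Robo3 in Npas4-/- against wild type lies at -4.36 in the dark and -4.56 after light, and the other points lie between -0.34 and 0.26.

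Markers of other cells varied between light-pulse libraries too. Meningeal fibroblast markers summed to 95.7 to 811 CPM at 0.5 h of light, against 80.9 to 277 CPM in CT17 dark, with 0 of 7 called by edgeR. At 3 h, Aqp4 of astrocytes had a log2 fold of -0.35 ± 0.07 (adjusted p = 0.0133, edgeR) and P2ry12 of microglia -0.43 ± 0.07 (adjusted p = 0.00385, edgeR). At 6 h against CT23 dark, Gfap of astrocytes had 0.66 ± 0.15 (adjusted p = 0.0450, edgeR). Their part in the values of the 6 genes was not tested.

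Per kilobase of transcript, Slit1 was the most abundant of the 6 genes in all 28 libraries and Robo3 the least. The lengths implied by the counts and RPKM were 25433 bases for Slit2 and 16516 for Robo2. They were 5921 for Slit1, 6067 for Slit3, 6765 for Robo3 and 7563 for Robo1, and the orders and shares below rest on them. In CPM, which do not divide by length, Slit2 averaged 142 against 128 for Slit1 in CT17 dark. It averaged 179 against 145 in wild-type littermates in the dark, but 144 against 158 at 3 h and 146 against 161 at 6 h of light. In Npas4-/- libraries (n = 6 over both lighting conditions, SD) the deposited RPKM averaged 22.6 ± 1.14 for Slit1, 6.80 ± 1.02 for Slit2, 3.72 ± 0.498 for Robo1, 2.07 ± 0.0991 for Slit3, 1.44 ± 0.137 for Robo2 and 0.0493 ± 0.0143 for Robo3. In wild-type littermates (n = 6) it averaged 24.5 ± 2.52 for Slit1, 6.87 ± 0.749 for Slit2, 3.74 ± 0.214 for Robo1, 2.55 ± 0.249 for Slit3, 1.52 ± 0.0993 for Robo2 and 1.10 ± 0.190 for Robo3. In the 16 light-pulse libraries it averaged 23.9 ± 2.83 for Slit1, 6.28 ± 0.912 for Robo1, 5.94 ± 0.623 for Slit2, 2.44 ± 0.242 for Slit3, 2.24 ± 0.294 for Robo2 and 0.456 ± 0.0841 for Robo3. Slit2 and Robo1 overlapped in the light-pulse libraries, as did Slit3 and Robo2, so neither order holds there beyond the spread. Slit1 made up 68.8% to 77.5% of the summed RPKM of the 3 ligands over all libraries. Robo3 made up 0.598% to 1.19% of the 3 receptors in Npas4-/-, against 13.6% to 20.8% in wild-type littermates, and 3.57% to 7.15% in light-pulse libraries.

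**Figure D4:**
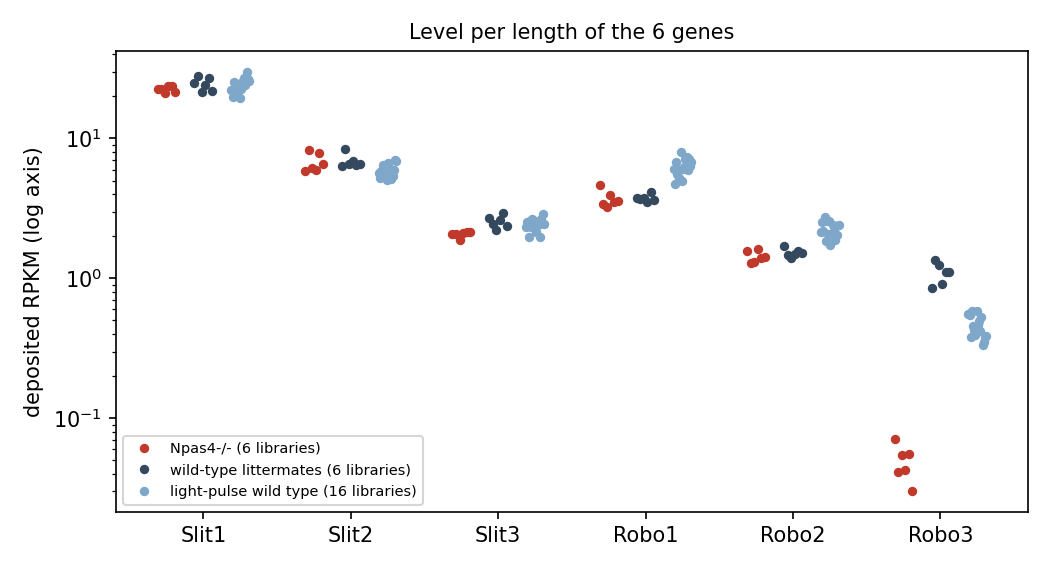
Deposited RPKM of the 6 genes on a log axis, 1 point per library, for Npas4-/- (red), wild-type littermates (dark blue) and light-pulse wild type (light blue). Slit1 is highest in each set, and Robo3 is lowest in each set, at 0.0302 to 0.0715 RPKM in Npas4-/- and 0.860 to 1.36 RPKM in wild-type littermates.

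The wild types of the experiments did not have the same Robo3 level. In the dark at CT17 Robo3 averaged 1.15 RPKM in wild-type littermates, against 0.516 RPKM in the light-pulse mice, a ratio of 2.23. Robo1 had a ratio of 0.644 and Slit3 of 1.04. Cell type markers differed between these groups as well. Those of SCN neurons averaged 1309 CPM in sum in wild-type littermates, against 778 CPM in the light-pulse mice. For astrocytes the sums were 2525 against 4056 CPM, and for neighbouring hypothalamic neurons 445 against 393 CPM. Their part in the Robo3 ratio was not tested. The tables were normalized separately, the libraries share no sample, and the experiment and any batch cannot be told apart.

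Other genes of the pathway were counted from lists chosen by role. Among 8 partners and modifiers of Slit, such as the heparan sulfate proteoglycans Gpc1, Sdc1 and Sdc3, 0 were called by edgeR or DESeq2 between the genotypes in either condition, with 2 at an unadjusted p under 0.05 in the dark and 1 after light. Sdc1 had the largest fold of this list in the dark, 0.79 ± 0.22, with 0.20 ± 0.07 for Hs6st1 and -0.13 ± 0.15 for Dag1. The median log2 fold of the list was -0.01 in the dark, against 0.00 over all genes tested. Hs6st1, which adds sulfate to heparan sulfate, was the member called at 3 h of light and at none of the other times tested (0.48 ± 0.08, adjusted p = 0.00208, edgeR). It lost that call with the batch of the labels as the term (adjusted p = 0.0694), with no term (0.0927), with 3 kinds of library (0.0511) and without the second 3 h library (0.0527). At an unadjusted p under 0.05 Hs6st1 also stood out at 1 h, at 6 h against CT23 dark and in CT23 against CT17 dark. The same held in wild-type littermates after 1 h of light, but not at 0.5 h. Whether its fold differed between times was not tested.

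Of 20 cytoplasmic partners of Robo, among them Srgap3 and the adaptor Nck2, 0 were called between the genotypes in the dark or after light by edgeR. At an unadjusted p under 0.05 there were 4 in the dark and 1 after light, and DESeq2 called 1 in the dark, Nck2, and 0 after light. The largest folds in the dark were -0.34 ± 0.08 for Nck2, -0.27 ± 0.11 for Srgap3 and 0.15 ± 0.07 for Vasp. Averaged over both lighting conditions Nck2 was called lower in Npas4-/- (-0.26 ± 0.06, adjusted p = 0.0299, edgeR). That call was lost in 10 of the 12 fits that each left out 1 library, with adjusted p-values up to 0.0946. Cables1, which links Robo to the Abl kinase, was lower in CT23 dark than in CT17 dark (-0.41 ± 0.06, adjusted p = 0.0142, edgeR). The call was lost without the 4 suffix libraries (-0.41, adjusted p = 0.154) and without either CT23 library (-0.45, adjusted p = 0.0974, and -0.36, adjusted p = 0.243), while the fold stayed negative.

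Of the 11 measured genes of the netrin and NELL list of 12, 1 was called higher in Npas4-/- in the dark and 0 lower. It was Unc5b, a netrin receptor that mediates repulsion, at 0.54 ± 0.09 (adjusted p = 0.0126, edgeR), with 0.30 ± 0.09 after light (adjusted p = 0.307). The call in the dark was lost without wild-type replicate 1 (adjusted p = 0.0540) or 2 (0.0580). Over both lighting conditions Unc5b had 0.42 ± 0.06 (adjusted p = 0.00286, edgeR). At an unadjusted p under 0.05 there were 4 of 11 in the dark, Ntn1, Ntn4, Unc5a and Unc5b, and 2 after light, Unc5a and Unc5b. Over both conditions there were 5, with Nell2 added to those of the dark. The share of all genes at that cut was not counted, so these counts describe the named genes only. DESeq2 called 1 in the dark, Unc5b, 0 after light and 2 over both, Unc5a and Unc5b. With the replicate number as a block, edgeR called 4 in the dark, 0 after light and 5 over both, Nell2 among them. That fit also called more genes over the whole table, as given in the last section. Unc5b was also higher in CT23 dark than in CT17 dark (0.64 ± 0.10, adjusted p = 0.0140, edgeR), a call lost without the suffix libraries (adjusted p = 0.148) or without either CT23 library (0.149 and 0.0616). Nell2, the ligand of mammalian Robo3, had a log2 fold of -0.17 ± 0.09 in Npas4-/- against wild type in the dark and -0.17 ± 0.09 after light. Dcc, the netrin receptor that Robo3 binds in mammals, had 0.05 ± 0.11 and -0.02 ± 0.11. Of 7 known regulators of Robo genes or proteins, 0 were called between the genotypes by edgeR or DESeq2, and 1, Prrg4, had an unadjusted p under 0.05 in the dark. The folds were -0.31 ± 0.12 for Prrg4, -0.17 ± 0.18 for Lhx2 and 0.09 ± 0.07 for Ndfip2, the largest of the list in the dark. Lhx2 is a transcription factor that controls Robo expression in growing axons of the mouse.

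The 5 genes whose pattern was most like that of Robo3 were Cck, Prrg3, Stac, Adam11 and Ankrd6. Likeness was Pearson's r of mean log2 CPM over the 10 groups of both experiments, each experiment centred on its own mean, among 14476 genes. It was 0.983 for Cck, 0.964 for Prrg3, 0.962 for Stac, 0.955 for Adam11 and 0.944 for Ankrd6, and it leans on the gap between the genotypes, which makes up most of the range of Robo3. Cck, the neuropeptide cholecystokinin, averaged 5.68 CPM in Npas4-/-, against 39.1 CPM in wild-type littermates, a log2 fold of -2.80 in the dark and -2.75 after light. Stac had -0.88 and -0.67, Adam11 had -0.61 and -0.56, Ankrd6 had -0.35 in both, and Prrg3 had -0.25 and -0.24. Among the relatives, r was 0.748 for Slit3 (rank 138), 0.295 for Robo2, 0.222 for Slit1, 0.027 for Slit2 and 0.002 for Robo1.

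Histone marks at the 6 genes came from peak lists with 1 sample each, so these are descriptions of those samples without a test. H3K4me3 marks active and poised promoters, and H3K27ac marks active promoters and enhancers. Peaks were counted over the RefSeq span of each gene with 5 kb on either side. Fold enrichment is the value of the authors' peak caller. The Robo3 start carried only a weak H3K4me3 peak, of 4.901-fold after light and 5.01-fold in the dark. The strongest Robo3 peak lay inside the gene, 11.8 kb from the start site, at chr9:37420669-37421348 in the dark list. It reached 8.87-fold after light and 12.0-fold in the dark, and the third Robo3 peak 5.92-fold after light and 5.29-fold in the dark. All 3 were in both lists.

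The relatives with a start site in the promoter table had taller start peaks. The highest start peak was 34.3-fold after light and 35.6-fold in the dark at Robo1. The 3 Robo2 starts each carried a peak, of 31.9-fold after light and 30.1-fold in the dark at the start nearest the gene's end, 12.3-fold and 14.5-fold at the middle one, and 6.94-fold and 9.35-fold at the upstream one shown above. The highest start peak was 28.6-fold after light and 31.8-fold in the dark at Slit2. Slit1, which has no entry in the promoter table, had a highest peak of 27.4-fold after light and 31.4-fold in the dark. Slit3 had a start peak of 18.6-fold after light and 20.8-fold in the dark. The median over all H3K4me3 peaks was 14.8-fold after light and 12.8-fold in the dark, so the Robo3 start lay below the median in each list. Over 17274 genes, 63.7% had an H3K4me3 peak within 1 kb of a start after light and 64.8% in the dark.

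**Figure D5:**
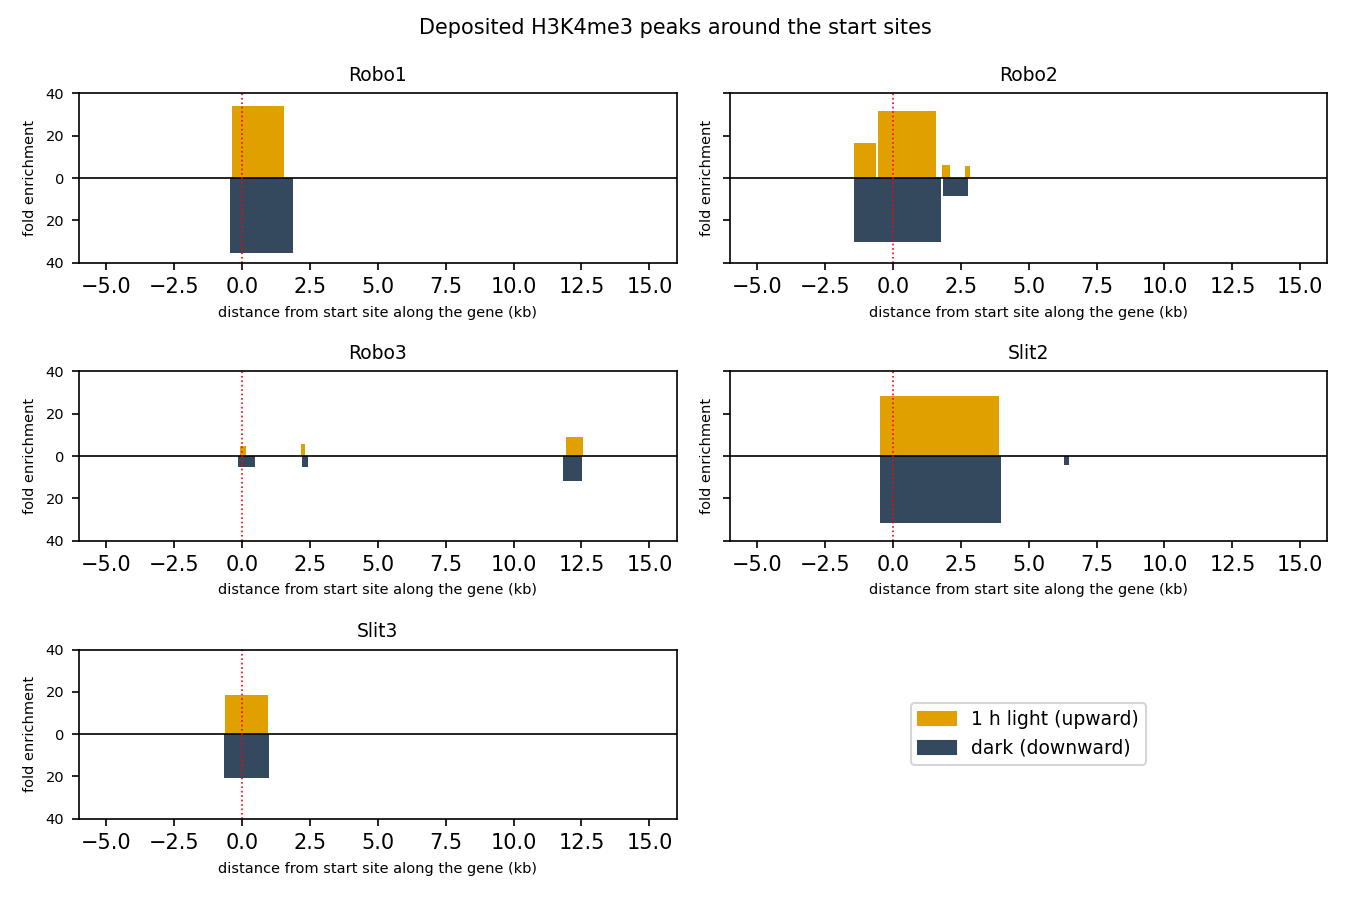
Deposited H3K4me3 peaks around the start site of Robo1, Robo2, Robo3, Slit2 and Slit3, after 1 h of light (upward) and in the dark (downward). The x axis is distance along the gene in kb, with 0 (dotted) at the start (for Robo2, the start with the strongest peak), the width of a bar is the width of the peak, and its height is fold enrichment. The Robo3 start peak is near 5-fold in both, and its tallest peak lies 11.8 kb in.

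H3K27ac was absent from the lists at Robo2, Robo3 and Slit3, with 0 peaks after light and 0 in the dark. Robo1 had 0 peaks after light and 2 in the dark, one of them at the start (4.37-fold). Slit2 had 4 after light and 3 in the dark. Slit1 had the most, 13 after light and 12 in the dark, with the highest at 6.36-fold after light and 8.30-fold in the dark. Of the 17 H3K27ac peaks after light, 9 overlapped a peak of the dark list, and of the 17 in the dark, 8 overlapped a peak of the light list. Slit1 was the gene of the 6 with the most H3K27ac peaks and with the highest RPKM. Over 17274 genes, 46.6% had an H3K27ac peak within 1 kb of a start after light and 47.4% in the dark.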

How the data were processed

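Per the labels' protocols, polyadenylated RNA of pooled SCN was isolated with oligo-dT beads and sequenced from TruSeq libraries. The authors deposited raw read counts per gene and RPKM values, which they scaled by gene length and by each library's reads. STAR 2.5.2b and 2.7.1a, HTSeq 0.9.1, featureCounts 1.6.2, BWA 0.7.16a, MACS2 2.1.1, HOMER 4.9.1 and the build mm10 are named in the submitters' processing notes. No source used here gives the strand setting or the counting options. The deposited peak lists give a fold enrichment and a −log10 q-value per peak, each as the authors' peak caller wrote it, from 1 sample per list and with no replicate.

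Counts were fitted with edgeR 4.0.16 (quasi-likelihood, TMM scaling) in R 4.3.3, over the 14524 genes of the light-pulse experiment and the 15001 of the Npas4 experiment that passed filterByExpr with a minimum count of 10. The light-pulse fit had a term for the title suffix s. p-values were adjusted by Benjamini-Hochberg over all tested genes, with calls at an adjusted p under 0.05. Backgrounds are shares of genes called at that threshold. None was counted for an unadjusted p under 0.05. DESeq2 1.42.0, other scalings, other terms and left-out libraries were alternatives. On simulated counts, the test recovered 93 of 100 genes changed by 1 on the log2 scale and 100 of 100 changed by 2 at 1 h of light, with 10 false calls. For Npas4-/- against wild type in the dark it recovered 97 and 100, with 12 false calls.

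RPKM values were used as deposited, to compare genes, and were not tested. CPM are on the TMM scale with no pseudocount, and fitted folds use the default prior count of edgeR. Log2 CPM, as in the likeness to Robo3 and the differences between kinds of library, use a prior count of 2. Nothing in the labels says that libraries came from separate cohorts, so the spread behind each p-value is that of these libraries and may be technical.

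The members and lists were chosen with earlier results of these data known. Robo3 was left out of every count of tested members. Beyond members and lists, the text names the 5 genes most like Robo3 over the group means, and for lists with no called gene the 3 with the largest absolute folds. The comparison over both lighting conditions was added after the values were seen. The files hold no gene spans, so spans, start sites and promoters are those of RefSeq on GRCm38.p6. Promoters were matched for 5 of the 6 genes, all but Slit1. The 18 single-nucleus samples and the 2 ChIP inputs were not used here. Same-numbered Npas4 libraries were not taken as pairs.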

Additional observations from a re-analysis of the deposited data

How the results depend on the processing

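Between the genotypes, the difference for which it was singled out, Robo3 stayed lower in Npas4-/- in all 36 alternative fits of the same libraries. In the other comparisons, whose folds were small, its sign turned in 14 of 111. Over all 147, the fold moved by less than the SD between replicates in 138. The relatives kept their side of the threshold in 726 of 735 values, and the other 9 newly passed it, while the sign of their fold turned in 90. At 1 h, the batch of the labels as the term gave 1 called relative, Robo2. At 3 h it gave 2, Robo1 and Slit1, and so did summing libraries of the same number, with Robo1 at 0.44 (adjusted p = 0.0199) and Slit1 at 0.36 (adjusted p = 0.0472, edgeR). Over both lighting conditions, the replicate block and DESeq2 each gave 1, Slit3, at an adjusted p of 0.00514 and 0.0126. The cause was not tested. At 6 h, Robo3 had -0.24 with the batch of the labels.

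The number of genes called moved more. With the batch of the labels as the term it was 1218 at 1 h, 1664 at 3 h and 69 for CT23 against CT17. Without the 4 suffix libraries it was 44 at 0.5 h, 119 at 1 h, 197 at 3 h, 119 at 6 h and 3 for CT23. With 3 kinds of library, an alternative chosen after seeing the data, it was 61 at 1 h, 66 at 3 h, 114 at 6 h and 8 for CT23. With summed libraries, also chosen afterwards, it was 880 at 1 h, 1354 at 3 h and 341 for CT23. No term gave 115 at 6 h. DESeq2 gave 86 for CT23, 254 and 161 between the genotypes in the dark and after light, 11 for the difference of light responses and 514 over both lighting conditions, and its size factors in edgeR gave 1 for that difference.

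With the replicate block, 452 and 755 genes were called for light in Npas4-/- and in wild type. Between the genotypes 463 were called in the dark, 227 after light and 1082 over both conditions. In the light-pulse fit the block with the suffix gave 74 for CT23. Libraries of the same number correlated at -0.0134 to 0.525 in the Npas4 experiment, above 0.1 in 16 of 18 pairs, and libraries of different numbers at -0.409 to 0.135, above 0.1 in 1 of 36. All 12 libraries correlated best with one of their own number. The Npas4 libraries thus group by number, though the labels do not say what a number marks. The fit without the block was kept, so its spread includes the differences between numbers. Between the genotypes it called fewer genes than the fit with the block.

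Leaving out 1 library at a time gave 107 to 166 genes at 1 h, 195 to 368 at 3 h, 77 to 123 at 6 h and 7 to 24 for CT23. It gave 155 to 223 for light in Npas4-/-, 48 to 94 and 32 to 42 between the genotypes in the dark and after light, 0 to 3 for the difference of light responses, and 176 to 283 over both conditions. Relatives called over both conditions were 0 to 1, since Slit3 passed without wild-type replicate 3 from the dark (adjusted p = 0.0354) or after light (0.0381). The log2 fold of Robo3 ran from -0.22 to -0.10 at 6 h, from -0.59 to -0.13 for light in Npas4-/-, from -4.83 to -4.36 between the genotypes after light, and from -0.46 to 0.00093 for the difference of light responses. Called genes of the pathway lists numbered 0 to 2 at 3 h and for CT23, 0 to 1 between the genotypes in the dark and 1 to 2 over both conditions. With the replicate block they numbered 6 in the dark, 8 over both conditions, 1 for light in wild type and, with the suffix term, 3 at 3 h. With DESeq2 they numbered 2 in the dark and 2 at 3 h. The batch of the labels gave 5 at 1 h and 6 at 3 h, and summed libraries gave 3 at 1 h, 7 at 3 h and 5 for CT23. Without the suffix libraries there were 0 for CT23, and with 3 kinds of library 0 for CT23 and 0 at 3 h. Keeping only peaks with a −log10 q of 5 or more left 6 of 17 H3K27ac peaks after light and 11 of 17 in the dark at the 6 genes, with 3 shared in each. The depth of Robo3 in Npas4-/- limits any statement on its light response there.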
